A study of Mus musculus with 12 samples.

Results

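The genes described here are retinoic acid receptors and genes that retinoic acid is known to switch on: the receptors Rara, Rarb, Rarg and Rxra, the binding proteins Crabp1 and Crabp2, the degrading enzymes Cyp26a1 and Cyp26b1, and the target genes Cdx1 and Stra8. They were chosen by name, and each of the 10 symbols matched 1 entry among the 53379 genes in the expression tables. All 10 passed the filter on low counts. The cells were ZHBTc4 mouse embryonic stem cells of the 129/Ola strain, a line whose native Oct4 (Pou5f1) alleles are disrupted. Every group, the controls included, therefore depends on an Oct4 transgene that is shut down by doxycycline. The 2 lines were wild type (WT), meaning with intact Phf6, and knockout (KO) for Phf6. Each was left untreated, given doxycycline at 0.5 µg/ml for 2 days, or given all-trans retinoic acid over 4 days with leukemia inhibitory factor (LIF) left out of the medium. There were 2 libraries in each of the 6 groups, 12 in all. The dose of retinoic acid is left out because the protocol text gives doses in a unit that differs from the sample labels for doxycycline. Early passages were kept on fibroblast feeders and later ones on gelatin. The labels do not say whether the 2 libraries of a group came from separate cultures, nor how many KO clones were used. The p-values below therefore reflect spread among libraries, which may be technical.

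Retinoic acid is a small lipid made from vitamin A. In the cytoplasm it is carried by the CRABP proteins, and in the nucleus it binds the RAR receptors, which sit on DNA with an RXR partner at paired copies of a short hexamer. CYP26 enzymes oxidise it and so end the signal. In embryonic stem cells retinoic acid is a classic inducer of differentiation, and Rarb and Cyp26a1 are textbook targets that carry receptor-binding elements close to their starts.

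The libraries held 15799517 to 21441996 counts each. Levels are given as CPM, counts per 1000000 of the library size after TMM scaling, and 3 counts correspond to 0.140 to 0.190 CPM. Comparisons between genes use the deposited TPM values, which are per length. Phf6 had group means of 32.5 to 41.5 CPM in WT and 5.49 to 7.78 CPM in KO, so the KO libraries kept some Phf6 reads. Pou5f1 was at 1022 ± 13.0 CPM (SD, n = 2) in untreated WT, 40.2 ± 8.68 CPM with doxycycline and 1027 ± 76.5 CPM with retinoic acid. In KO it was at 1194 ± 2.40, 13.7 ± 0.882 and 983 ± 9.47 CPM in the same order. With doxycycline Pou5f1 was thus lower in KO than in WT (log2 change -1.57 ± 0.13, edgeR adjusted p = 1.9e-06), and its part in the doxycycline differences between the lines was not tested. The retinoic acid libraries also differ from the untreated ones in a named RNA extraction kit, in LIF and in days of culture, and these cannot be told apart from the retinoic acid itself. In RNA from whole cultures, fewer cells of a type and less RNA per cell cannot be told apart.

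The DNA around the starts of the members is shown first, because 4 of the genes with the largest rises (Cyp26a1, Cyp26b1, Rarb and Stra8) have a promoter window in the RefSeq table (GRCm38.p6), which spans 250 bases before to 50 bases after each start. The table had 13 windows for 8 of the 10 members. The hexamer AGGTCA and 3 variants, namely the hexamer AGTTCA, the hexamer GGGTCA and the hexamer GGTTCA, were searched on both strands, singly and as direct repeats with 1, 2 or 5 bases between them. A repeat with 5 bases between was found in 2 members, Rarb and Cyp26a1, and in 32 of all 32851 windows (0.0974%). A repeat with 1 base between was in 0.222% of windows and one with 2 in 0.268%, and none was in a member's window. At least 1 hexamer was present in 7 of the 13 member windows (53.8%), which belong to 6 members, and in 43.7% of all windows. Of the 13 windows, 2 of Rara overlap each other, and neither holds a hexamer. The 4 sites below carry the hexamers in capitals. Each is printed with 6 flanking bases on either side, and the coordinates are those of the printed stretch. The Rarb element itself lies 53 to 37 bases before the RefSeq start, within a GENCODE exon of Rarb, and its stretch is chr14:16575507-16575535 on the minus strand. The Cyp26a1 element lies 32 to 16 bases before the start, in the stretch chr19:37697770-37697798, and is printed on the minus strand although the gene runs on the plus strand. The Stra8 sites are single hexamers on the plus strand, 194 to 189 and 38 to 33 bases before the start, in the stretches chr6:34920748-34920765 and chr6:34920904-34920921.
Rarb: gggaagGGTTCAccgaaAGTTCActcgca
Cyp26a1: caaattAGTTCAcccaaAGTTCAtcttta
Stra8 distal: gtgaaaAGGTCAtcttgc
Stra8 proximal: ggtaccAGGTCAgttttt

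The upstream stretches of the 2 degrading enzymes are set side by side because these genes had the largest rises among the members. The Cyp26a1 stretch, chr19:37697648-37697797 on the plus strand, covers 160 to 11 bases before the start and shows the same hexamers from the other strand in capitals. The Cyp26b1 stretch, chr6:84593909-84594058 on the minus strand, covers 248 to 99 bases before the start and holds none of the 4 hexamers. A match is a description of letters, and its absence says only that these letters are not in this window.
Cyp26a1 upstream: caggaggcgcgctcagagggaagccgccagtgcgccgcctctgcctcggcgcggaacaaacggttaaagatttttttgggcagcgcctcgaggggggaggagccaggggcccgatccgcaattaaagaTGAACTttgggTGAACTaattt
Cyp26b1 upstream: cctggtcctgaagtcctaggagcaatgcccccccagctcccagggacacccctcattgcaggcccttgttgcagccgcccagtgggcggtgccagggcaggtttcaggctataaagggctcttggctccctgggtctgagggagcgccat

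In the main test retinoic acid changed every member in both lines, 8 upward in WT (all but Rarg and Crabp1) and 9 upward in KO (all but Rarg). The test was edgeR's quasi-likelihood test with Benjamini-Hochberg adjustment over the 17884 genes that passed the filter, with a threshold of 0.05 on the adjusted p. This background is high: retinoic acid changed 73.9% of all genes tested in WT, with 41% rising and 32.9% falling. In KO it changed 75.5%, with 40.9% rising and 34.6% falling. The count of members called is therefore not a result about them by itself, and the sizes carry more. In WT, 6 members rose at least 2-fold, where 23.3% of all genes tested did. They were Rarb, Cyp26a1, Cyp26b1, Crabp2, Cdx1 and Stra8, and the same 6 members did so in KO, where 23.4% of all genes tested did. Cyp26a1 had the 6th largest fitted rise of the 17884 genes in WT and the 23rd in KO. Because TMM scaling sets the centre of the data, the split of calls depends on it: 55.5% of WT calls and 54.2% of KO calls were upward, against 73.1% and 69.4% with library totals alone and 80.2% and 76.9% with limma on log2(TPM + 1). The median log2 change of all genes tested was 0.12 in WT and 0.10 in KO with TMM, and 0.47 and 0.43 with library totals. With limma on log2(TPM + 1) or log2(TPM + 0.1), 8 members were called in WT, all upward, and the falls of Rarg and Crabp1 were not called. With DESeq2, 9 members were called in KO, 8 of them upward.

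**Figure D1:**
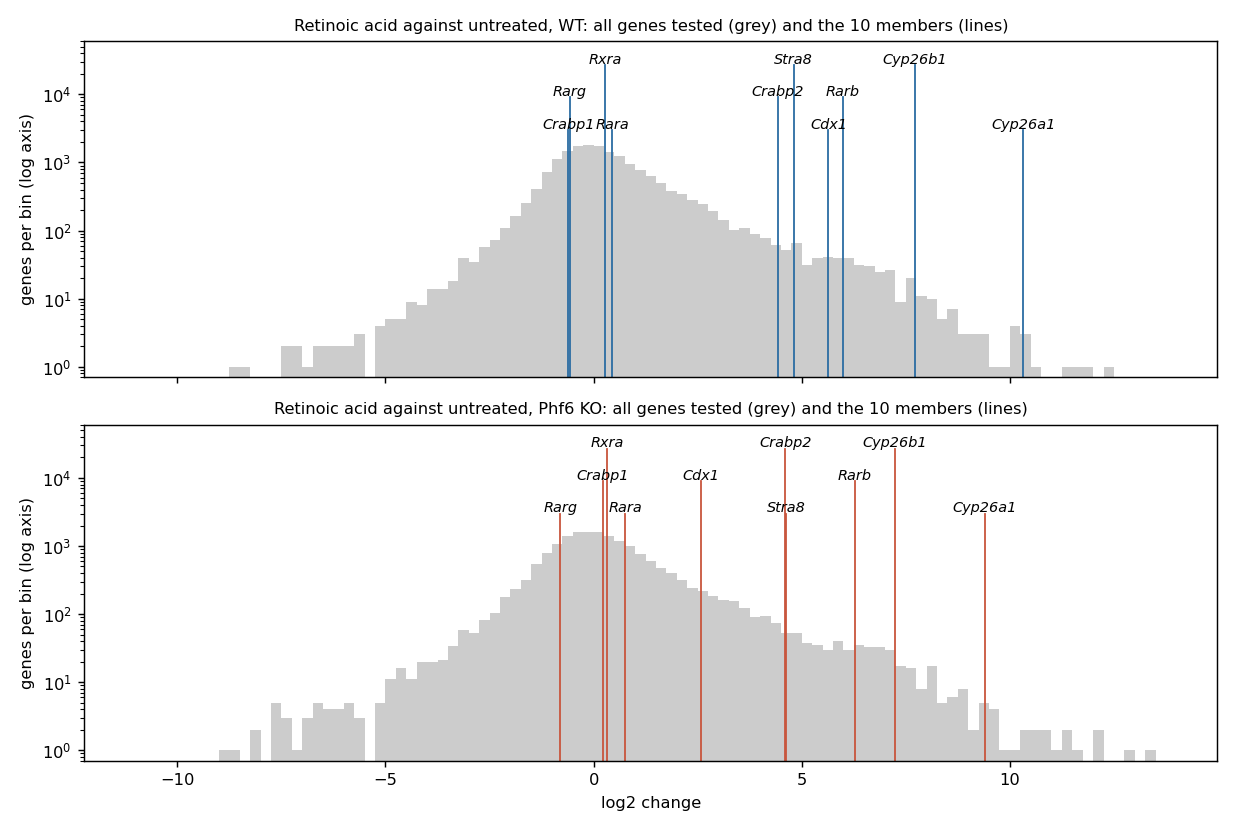
Log2 change with retinoic acid of all 17884 genes tested (grey bars, genes per bin on a log axis, horizontal axis in log2 units) with the 10 members as vertical lines, WT above and Phf6 KO below. Rara, Rarg, Rxra and Crabp1 sit in the bulk of the genes in both lines, Cyp26a1 lies far to the right (10.32 in WT, 9.39 in KO), and Cdx1 lies at 5.64 in WT and 2.58 in KO.

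Among the receptors, with TMM scaling, Rarb rose from near the counting limit in both lines, Rara rose by less than 2-fold, Rarg fell, and Rxra rose slightly. The sizes for Rara, Rarg and Rxra depend on scaling, as given below. Rarb encodes the RAR that retinoic acid itself induces in many cells. It was read at 0.529 and 0.249 CPM in the 2 untreated WT libraries (9 and 4 counts), 0.256 and 0.729 in untreated KO, 27.6 and 23.3 in WT with retinoic acid, and 38.8 and 39.3 in KO with retinoic acid. All 4 retinoic acid libraries stood above all others, and the KO ones stood above the WT ones. The rise in log2 units was 5.99 ± 0.22 (SE) in WT (edgeR adjusted p = 2.1e-19) and 6.27 ± 0.20 in KO (6.6e-21). From counts summed over the 2 libraries, the ratio was 65.0 in WT, with an exact 95% interval of 37.9 to 122 that covers counting error only, and 78.2 in KO (48.0 to 137). The rise differed by 0.28 ± 0.56 between the lines (adjusted p = 0.80), so at these untreated counts no difference was detectable. Leaving out untreated WT replicate 1 or 2 gave 6.60 or 5.54 for WT, and leaving out untreated KO replicate 1 or 2 gave 5.70 or 7.18 for KO.

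Within retinoic acid, Rarb was higher in KO than in WT by 0.62 ± 0.10 (adjusted p = 1.8e-05), a fold of 1.53. With limma on log2(TPM + 1) the difference was 0.48 and did not pass (adjusted p = 0.12), nor did it on log2(TPM + 0.1) (0.50, adjusted p = 0.57). Doxycycline left Rarb at 0.477 and 0.555 CPM in WT and 0.727 and 0.538 CPM in KO, values that overlap those of untreated cells. Rarb lies at chr14:16430839-16819156 and overlaps Top2b, a DNA topoisomerase gene on the other strand, and the antisense gene Gm48162. Its deposited counts were not whole numbers in any of the 12 libraries, so the authors' counting split shared reads there, which it did for no other member. Top2b itself was at 80.8 ± 0.0347 CPM in untreated WT and 161 ± 4.78 CPM with retinoic acid (SD, n = 2), and its part in the Rarb counts was not tested.

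Rara and Rarg, the RAR genes that untreated cells already express, moved apart. Rara was read at 41.4 and 40.2 CPM in untreated WT, 38.7 and 33.5 for untreated KO, 20.7 and 21.5 in WT with doxycycline, 24.4 and 24.3 in KO with doxycycline, 54.9 and 56.8 in WT with retinoic acid, and 60.9 and 61.5 in KO with retinoic acid. The doxycycline libraries were the lowest and the retinoic acid libraries the highest, with no overlap between treatments. In log2 units it rose with retinoic acid by 0.45 ± 0.07 in WT (edgeR adjusted p = 9.1e-07) and 0.76 ± 0.07 in KO (6.1e-11). Both rises depend on scaling. The WT rise was 0.80 with library totals and 0.87 with limma on log2(TPM + 1). The KO rise ran from 0.63 to 1.20 over the alternatives. In deposited TPM the KO mean went from 16.7 ± 1.1 untreated to 38.4 ± 0.55 with retinoic acid (SD, n = 2). With doxycycline Rara changed by -0.95 ± 0.08 in WT (adjusted p = 1.4e-11) and -0.57 ± 0.08 in KO (2.8e-07). KO and WT did not differ past the threshold in any condition (log2 change -0.18 ± 0.07 untreated, 0.20 ± 0.08 with doxycycline and 0.13 ± 0.06 with retinoic acid, adjusted p = 0.066, 0.056 and 0.099). The untreated difference passed in a fit without untreated KO replicate 1 (-0.30, adjusted p = 0.013), in one without chromosome 1 genes (-0.20, 0.039) and in one of only the libraries compared (-0.19, 0.044). The doxycycline difference passed with upper-quartile factors (0.27, 0.011), with library totals (0.27, 0.011) and with limma on log2(TPM + 1) (0.24, 0.030) or log2(TPM + 0.1) (0.26, 0.028). The retinoic acid difference passed in a fit of only the libraries compared (0.14, 0.032).

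Rarg was read at 69.0 and 69.7 CPM in untreated WT, 75.0 and 75.3 for untreated KO, 12.4 and 12.7 in WT with doxycycline, 10.4 and 10.9 in KO with doxycycline, 48.7 and 44.0 in WT with retinoic acid, and 45.1 and 41.2 in KO with retinoic acid. The doxycycline libraries stood far below all others, and the WT and KO libraries overlapped only with retinoic acid. The log2 change with doxycycline was -2.47 ± 0.08 in WT (edgeR adjusted p = 8.0e-21) and -2.82 ± 0.08 in KO (6.4e-22), a fall to 0.181 and 0.142 of the untreated level. With retinoic acid it was -0.58 ± 0.06 in WT (4.8e-09) and -0.80 ± 0.06 in KO (7.1e-12). The WT change was -0.23 with library totals and -0.07 with limma on log2(TPM + 1) (adjusted p = 0.44), with -0.08 on log2(TPM + 0.1) (0.45), so it was lower relative to the median of all genes, while in TPM no fall was detectable. KO and WT did not differ past the threshold in any condition (adjusted p = 0.18, 0.080 and 0.22), although the doxycycline difference of Rarg passed with limma on log2(TPM + 0.1) (-0.28, adjusted p = 0.039).

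Rxra, a partner that all RARs share, was read at 36.9 and 35.6 CPM in untreated WT, 25.2 and 27.1 for untreated KO, 63.8 and 66.6 in WT with doxycycline, 52.0 and 52.9 in KO with doxycycline, 45.1 and 42.9 in WT with retinoic acid, and 33.3 and 32.0 in KO with retinoic acid. In every condition both KO libraries were below both WT libraries. The log2 change of Rxra from WT to KO was -0.47 ± 0.07 untreated (edgeR adjusted p = 1.2e-05), -0.32 ± 0.06 with doxycycline (1.7e-04) and -0.43 ± 0.07 with retinoic acid (5.6e-06). These calls held under every alternative run. It rose with doxycycline by 0.85 ± 0.07 in WT (4.1e-12) and 1.00 ± 0.07 in KO (4.9e-13), the opposite direction to Rara and Rarg. With retinoic acid it rose by 0.28 ± 0.07 in WT (4.8e-04) and 0.32 ± 0.07 in KO (2.9e-04), values that became 0.62 and 0.65 with library totals and 0.98 and 0.86 with limma on log2(TPM + 1).

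**Figure D2:**
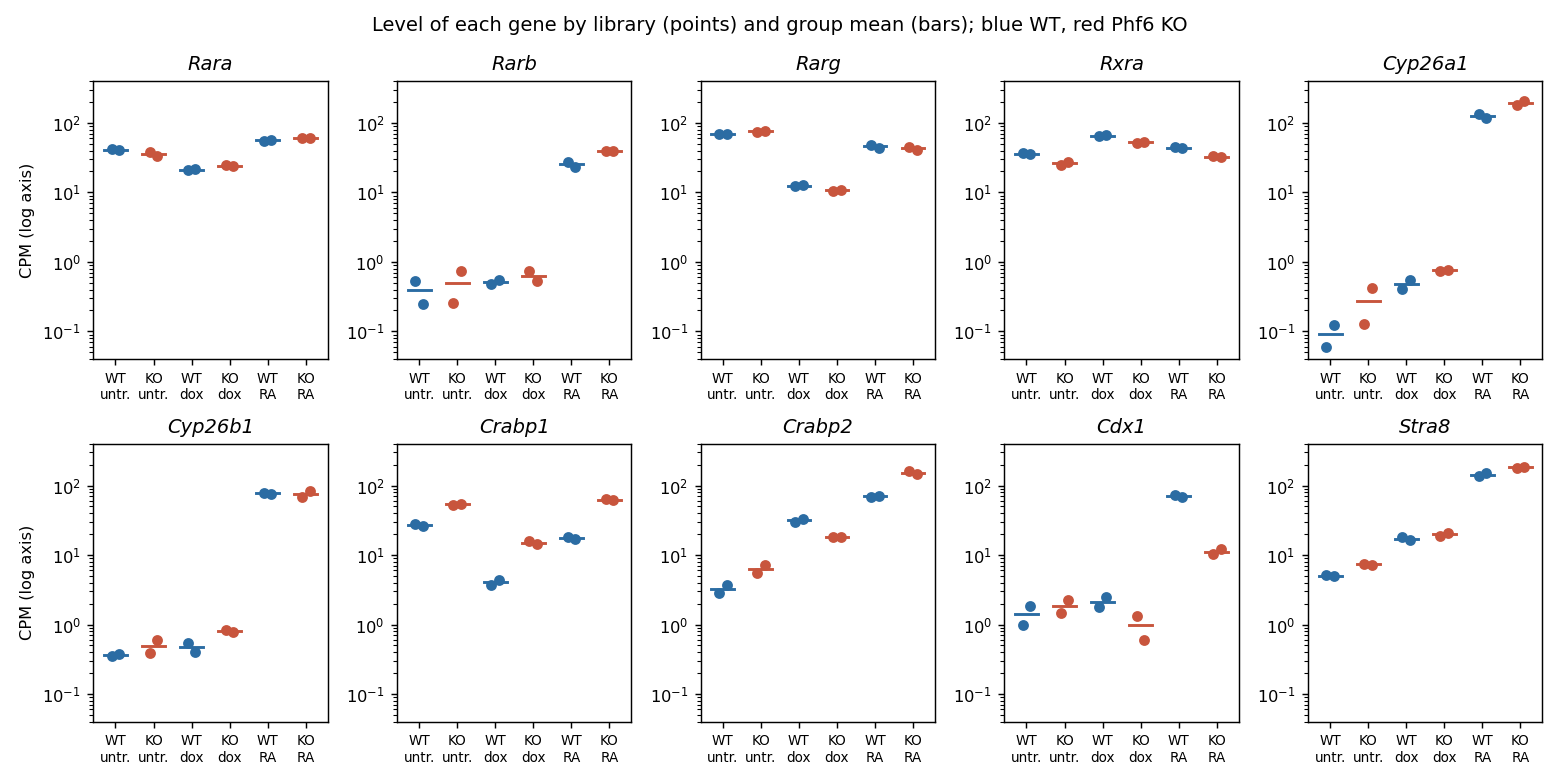
CPM of each of the 10 genes in each library (points, log axis) with group means (bars), WT in blue and Phf6 KO in red, for untreated (untr.), doxycycline (dox) and retinoic acid (RA) groups of 2 libraries. Rarb, Cyp26a1 and Cyp26b1 are below 1 CPM in all libraries without retinoic acid, Rarg is lowest with doxycycline, and Crabp1 is higher in KO than in WT in each condition.

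The proportions of the 3 RAR genes, compared per length in TPM, therefore differed by treatment. Their summed TPM was 52.8 ± 1.57 in untreated WT and 54.3 ± 0.785 in untreated KO, 18.1 ± 0.856 and 19.3 ± 0.467 with doxycycline, and 87.5 ± 6.19 and 98.1 ± 1.07 with retinoic acid (SD, n = 2). Rarg made up 64.2 ± 0.663% of the sum in untreated WT, 39.1 ± 0.652% with doxycycline and 36.8 ± 1.08% with retinoic acid. Rarb made up 0.496 ± 0.400% in untreated WT and 23.1 ± 2.39% with retinoic acid. In KO the share of Rarb with retinoic acid was 29.2 ± 0.411% and that of Rarg 31.7 ± 0.578%. With doxycycline Rara held the largest share, 59.4 ± 0.619% in WT and 66.9 ± 0.226% in KO. These shares are descriptions and rest on the deposited TPM of each gene, Rarb with its overlap included.

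**Figure D3:**
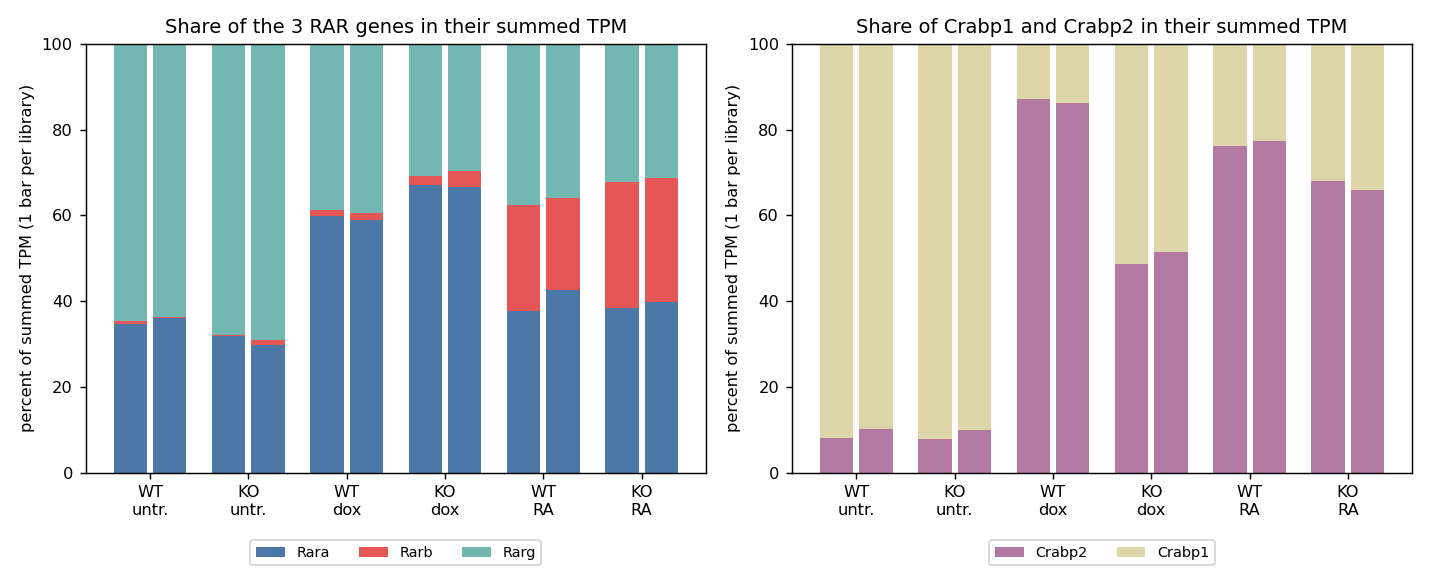
Left, percent of the summed TPM of Rara, Rarb and Rarg, and right, percent of the summed TPM of Crabp1 and Crabp2, with 1 bar per library and 2 libraries per group. Rarg takes 63.7 to 69.0% of the RAR sum in untreated libraries, Rarb takes 21.4 to 29.5% only with retinoic acid, and Crabp2 passes from 7.80 to 10.3% of the CRABP sum in untreated libraries to 86.3 and 87.3% in WT with doxycycline.

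The 2 binding proteins moved in opposite directions with doxycycline, Crabp1 down and Crabp2 up, and both separated KO from WT. Crabp1, which is thought to hold retinoic acid in the cytoplasm and pass it on for degradation, was read at 27.6 and 26.5 CPM in untreated WT, 53.4 and 54.3 for untreated KO, 3.68 and 4.39 in WT with doxycycline, 15.9 and 14.3 in KO with doxycycline, 18.1 and 17.3 in WT with retinoic acid, and 63.3 and 62.5 in KO with retinoic acid. In each condition both KO libraries were above both WT libraries. Crabp1 was higher in KO by 0.99 ± 0.07 untreated (edgeR adjusted p = 3.1e-11), 1.89 ± 0.12 with doxycycline (6.2e-13) and 1.83 ± 0.07 with retinoic acid (2.3e-17). As folds these were 1.99, 3.70 and 3.55. It was the only member called higher in KO in all 3 conditions, and the calls held under every alternative run. Of all genes tested, 15.2% were called higher in KO in untreated cells, 17.9% in doxycycline and 18.8% in retinoic acid.

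Doxycycline lowered Crabp1, with log2 changes of -2.73 ± 0.11 in WT (edgeR adjusted p = 1.9e-18) and -1.83 ± 0.08 in KO (1.1e-17). With retinoic acid it fell in WT (-0.61 ± 0.08, 1.5e-07) and rose in KO (0.22 ± 0.07, 3.7e-03). Both retinoic acid calls were sensitive. The WT change was -0.27 with library totals and -0.08 with limma on log2(TPM + 1) (adjusted p = 0.36) or log2(TPM + 0.1) (0.38). The KO change was 0.55 with library totals, and it no longer passed with DESeq2 (0.22, adjusted p = 0.082) or without untreated KO replicate 1 (0.19, 0.062). The difference between the lines did hold: the change with retinoic acid was 0.84 ± 0.11 more positive in KO (adjusted p = 1.1e-06) and the change with doxycycline 0.89 ± 0.15 more positive (5.1e-05). These 2 differences share the untreated libraries.

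Crabp2, which delivers retinoic acid to the receptors, was read at 2.88 and 3.67 CPM in untreated WT, 5.45 and 7.17 for untreated KO, 30.4 and 33.3 in WT with doxycycline, 18.1 and 18.3 in KO with doxycycline, 69.4 and 71.6 in WT with retinoic acid, and 162 and 146 in KO with retinoic acid. No 2 groups overlapped. The order of KO and WT turned over between conditions, with KO above WT in untreated and retinoic acid cells and below it with doxycycline. In log2 units KO differed from WT by 0.95 ± 0.17 untreated (edgeR adjusted p = 1.0e-04), by -0.81 ± 0.09 with doxycycline (2.4e-08) and by 1.13 ± 0.06 with retinoic acid (5.3e-14). Retinoic acid raised Crabp2 by 4.43 ± 0.11 in WT (4.2e-23) and 4.60 ± 0.09 in KO (1.9e-25). Doxycycline raised it by 3.29 ± 0.13 in WT (5.3e-19) but only 1.52 ± 0.12 in KO (8.3e-12). The doxycycline rise was smaller in KO (log2 difference -1.76 ± 0.20, adjusted p = 1.3e-07), while the retinoic acid rise differed by 0.18 ± 0.19 (0.60).

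Per length, Crabp1 was the main binding protein transcript in untreated cells and Crabp2 with retinoic acid. Crabp2 held 9.13 ± 1.65% of their summed TPM in untreated WT and 8.85 ± 1.49% in untreated KO (SD, n = 2). With retinoic acid it held 76.8 ± 0.881% in WT and 67.0 ± 1.37% in KO. With doxycycline it held 86.8 ± 0.691% in WT, while in KO the 2 genes were at nearly equal TPM (50.1 ± 2.10%). The summed TPM with doxycycline was 64.9 ± 3.89 in WT and 65.7 ± 1.24 in KO, so there the lines differed in the mixture rather than in the sum. With retinoic acid the sum was 215 ± 0.290 in WT and 557 ± 30.8 in KO, and both KO libraries exceeded both WT libraries. Fabp5, another carrier that can take retinoic acid to a different nuclear receptor, was 47.1 ± 0.65 CPM in WT with retinoic acid and 26.5 ± 0.16 in KO, a log2 change of -0.83 ± 0.08 from WT to KO (edgeR adjusted p = 1.4e-08).

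The enzymes that degrade retinoic acid rose from near the counting limit, and per length Cyp26a1 (136 ± 12.2 TPM in WT and 217 ± 15.4 in KO with retinoic acid) reached higher levels than Cyp26b1 (40.8 ± 1.98 and 38.1 ± 7.60 TPM, SD, n = 2). Cyp26a1 was read at 0.0588 and 0.125 CPM in untreated WT (1 and 2 counts), 0.128 and 0.425 for untreated KO (2 and 7 counts), 0.409 and 0.555 in WT with doxycycline, 0.727 and 0.777 in KO with doxycycline, 132 and 117 in WT with retinoic acid, and 183 and 204 in KO with retinoic acid. The retinoic acid libraries stood apart from all others, and both KO libraries exceeded both WT libraries. Summed counts went from 3 to 5353 in WT, a ratio of 1380 (exact 95% interval 472 to 6692, counting error only), and from 9 to 7801 in KO, a ratio of 686 (361 to 1501). The fitted log2 rises were 10.32 ± 0.19 in WT (edgeR adjusted p = 3.8e-25) and 9.39 ± 0.16 in KO (1.7e-26). They move with the few untreated counts: leaving out untreated WT replicate 1 or 2 gave 9.86 or 10.86, and leaving out untreated KO replicate 1 or 2 gave 8.78 or 10.45. The rises differed by -0.93 ± 0.87 between the lines (0.53), which is not detectable at this depth.

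With retinoic acid Cyp26a1 was higher in KO by 0.63 ± 0.06 (edgeR adjusted p = 6.0e-09), a fold of 1.55. The difference was 0.67 and did not pass with limma on log2(TPM + 0.1) (adjusted p = 0.16). Doxycycline raised it by 2.36 ± 0.75 in WT (8.2e-03) and 1.40 ± 0.53 in KO (0.024), on 17 and 26 summed counts against 3 and 9. The ratio of summed counts was 5.43 in WT (exact 95% interval 1.57 to 28.9) and 2.68 in KO (1.22 to 6.49). These small rises rest on few reads. The WT one did not pass without untreated WT replicate 1 (1.92, adjusted p = 0.091) or doxycycline WT replicate 2 (2.09, 0.084). The KO one did not pass without untreated KO replicate 1 (0.81, 0.25), doxycycline KO replicate 1 (1.45, 0.075) or doxycycline KO replicate 2 (1.35, 0.085).

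Cyp26b1, the related enzyme, was read at 0.353 and 0.374 CPM in untreated WT, 0.384 and 0.608 for untreated KO, 0.545 and 0.404 in WT with doxycycline, 0.839 and 0.777 in KO with doxycycline, 79.2 and 76.7 in WT with retinoic acid, and 68.5 and 83.8 in KO with retinoic acid. With retinoic acid the WT libraries lay between the KO ones. The rise was 7.72 ± 0.17 in WT (edgeR adjusted p = 3.9e-24) and 7.23 ± 0.17 in KO (4.0e-24), or 215 and 152 as ratios of summed counts (exact 95% intervals 123 to 416 and 93.3 to 266). KO differed from WT with retinoic acid by -0.03 ± 0.07 (0.75), unlike Cyp26a1, although a direct test of the 2 genes against each other was not made. Doxycycline gave 0.35 ± 0.54 in WT and 0.69 ± 0.44 in KO, neither past the threshold (0.60 and 0.18). Per length, Cyp26a1 held 76.9 ± 0.728% of the summed TPM of these 2 genes in WT with retinoic acid and 85.2 ± 1.64% in KO (SD, n = 2). Cyp26c1, the third enzyme of the family, rose from 3 to 123 summed counts in WT (log2 change 4.88 ± 0.48, 3.9e-10) and from 2 to 160 in KO (5.83 ± 0.49, 1.6e-11).

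**Figure D4:**
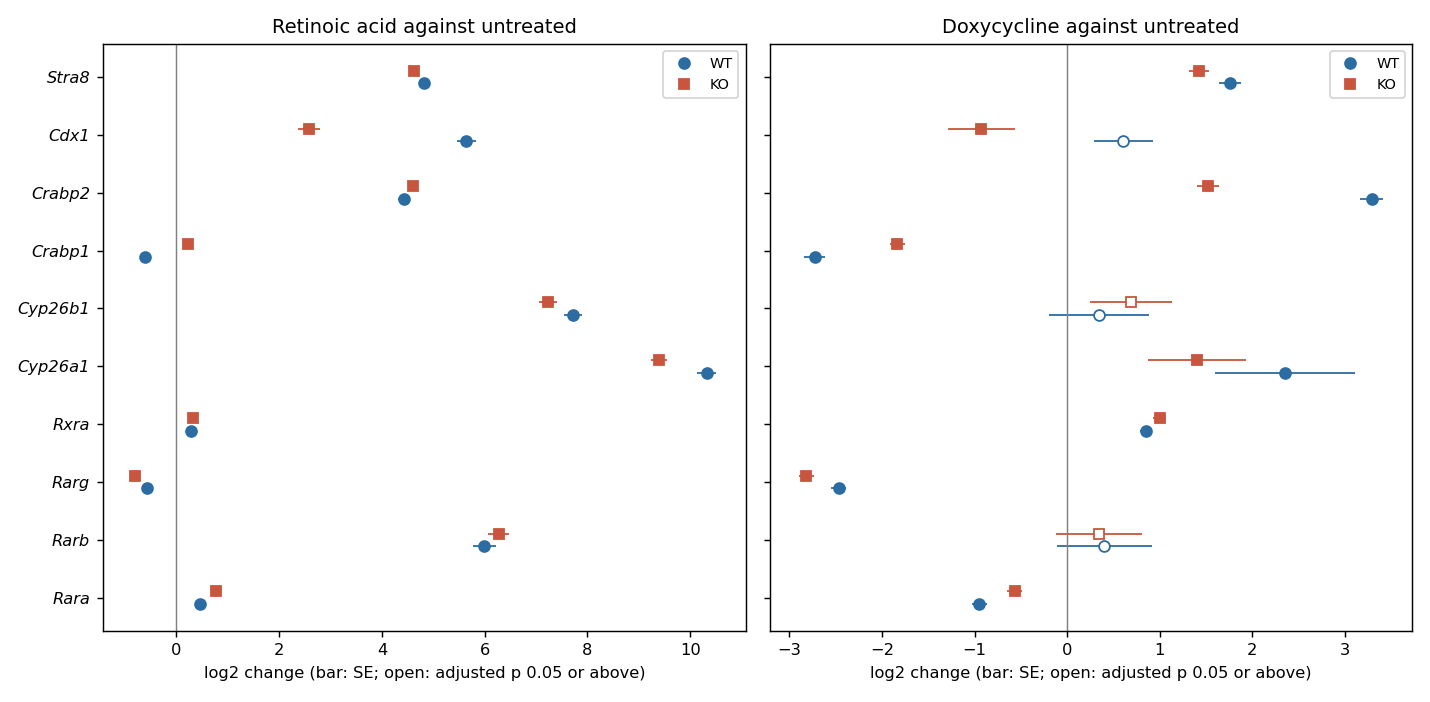
Log2 change of each gene against untreated cells (horizontal axis, log2 units) with retinoic acid, left, and doxycycline, right, in WT (blue circles) and Phf6 KO (red squares). Bars are 1 SE, and open symbols have an adjusted p of 0.05 or above. Cdx1 shows the widest gap between the lines with retinoic acid (5.64 against 2.58) and Crabp2 with doxycycline (3.29 against 1.52).

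Cdx1, a caudal-type homeobox gene that patterns the posterior axis and responds to retinoic acid in the embryo, was the member whose response differed most between the lines. It was read at 1.00 and 1.87 CPM in untreated WT (17 and 30 counts), 1.47 and 2.25 for untreated KO, 1.77 and 2.47 in WT with doxycycline, 1.34 and 0.598 in KO with doxycycline, 73.1 and 69.6 in WT with retinoic acid, and 10.3 and 12.1 in KO with retinoic acid. With retinoic acid both KO libraries were far below both WT libraries and above all others. The rise was 5.64 ± 0.18 in WT (edgeR adjusted p = 8.0e-17) and 2.58 ± 0.21 in KO (7.3e-10), a fold of 5.96. The rise was smaller in KO (log2 difference -3.07 ± 0.37, adjusted p = 3.8e-06), and the value was -3.57 to -2.67 when each of the 8 libraries was left out in turn. Across all genes tested, 10.3% had a retinoic acid response called lower in KO and 7.31% one called higher. Within retinoic acid, Cdx1 was lower in KO (-2.67 ± 0.12, 5.0e-13), a level 0.157 of that in WT, the 95th most negative difference of the 17884 genes.

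With doxycycline the counts of Cdx1 were 26 and 49 in WT and 24 and 10 in KO, and the calls were fragile. KO was below WT (log2 change -1.14 ± 0.34, edgeR adjusted p = 0.013), but the difference was -0.86 (adjusted p = 0.18) without doxycycline WT replicate 2, -0.69 (0.14) without doxycycline KO replicate 2, and -0.62 (0.056) with limma on log2(TPM + 1). Doxycycline lowered Cdx1 in KO (-0.93 ± 0.36, 0.032). That fall did not pass without untreated KO replicate 2 (-0.58, 0.31), without doxycycline KO replicate 2 (-0.47, 0.28) or with limma on log2(TPM + 1) (-0.44, 0.10) or log2(TPM + 0.1) (-0.81, 0.077). In WT doxycycline gave 0.61 ± 0.32 (0.11), and this passed without untreated WT replicate 2 (1.11, 0.024). Cdx4, a relative of Cdx1, showed no rise with retinoic acid, with values of 1.10 ± 0.64 CPM untreated and 0.671 ± 0.17 with retinoic acid in WT. In KO these were 0.594 ± 0.066 and 0.198 ± 0.016 CPM. With retinoic acid Cdx4 was lower in KO (log2 change -1.74 ± 0.67, edgeR adjusted p = 0.042), on 8 summed counts against 29. Cdx2, another relative, did rise, by 3.58 ± 0.19 in WT and 3.30 ± 0.29 in KO. These rises did not differ past the threshold (log2 difference -0.28 ± 0.49, 0.76). Cdx2 was lower in KO untreated (-1.21 ± 0.42, 0.03) and with retinoic acid (-1.49 ± 0.13, 3.8e-10).

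Stra8, a gene named for its stimulation by retinoic acid and needed for germ cells to enter meiosis, was read at 5.23 and 4.92 CPM in untreated WT, 7.43 and 7.29 for untreated KO, 18.1 and 16.4 in WT with doxycycline, 18.9 and 20.7 in KO with doxycycline, 135 and 150 in WT with retinoic acid, and 180 and 186 in KO with retinoic acid. No 2 groups overlapped. Retinoic acid raised it by 4.81 ± 0.09 in WT (edgeR adjusted p = 3.9e-26) and 4.63 ± 0.08 in KO (9.6e-27), folds of 28.1 and 24.8. Doxycycline raised it by 1.76 ± 0.12 in WT (1.8e-13) and 1.42 ± 0.11 in KO (2.0e-12). It was higher in KO by 0.53 ± 0.14 untreated (4.4e-03) and by 0.36 ± 0.06 with retinoic acid (6.9e-06). The untreated call did not pass without untreated WT replicate 2 (0.48, adjusted p = 0.054). With doxycycline KO exceeded WT by 0.20 ± 0.09 (0.076), which passed with upper-quartile factors (0.27, 0.018) and library totals (0.27, 0.021). The difference in doxycycline response of Stra8 passed on log2(TPM + 0.1) alone among the alternatives (-0.47, 0.032). Per length, Stra8 had 221 ± 11.6 TPM in WT and 291 ± 4.23 TPM in KO with retinoic acid. Of the members, only Crabp2 in KO (373 ± 28.2 TPM) had a higher mean TPM than Stra8 in its group.

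Among germ cell and meiosis markers, Rec8, a meiotic cohesin, rose with retinoic acid by 2.70 ± 0.08 in WT (edgeR adjusted p = 1.8e-21) and 2.94 ± 0.08 in KO (2.5e-22). Dazl, a germ cell RNA-binding protein, rose by 3.31 ± 0.10 (3.8e-21) and 3.29 ± 0.09 (1.0e-22). Sycp3, a synaptonemal complex protein, fell in WT (-0.88 ± 0.18, 1.4e-04) and in KO (-1.13 ± 0.18, 6.9e-06). Of the 10 genes of that list, 6 rose and 2 fell in WT and 5 rose and 3 fell in KO, with medians of 0.67 and 0.42 beside 0.12 and 0.10 over all genes.

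With doxycycline, 7 members changed in WT (Rxra, Cyp26a1, Crabp2 and Stra8 up, Rara, Rarg and Crabp1 down), where 63% of all genes tested changed (31.8% up, 31.3% down). In KO 8 members changed (those 7 in the same directions, and Cdx1 down), where 62.3% of all genes tested did (31.2% up, 31.2% down). The numbers of members called are near these backgrounds. Of the WT calls over all genes 50.4% were upward, and 42.4% with upper-quartile factors. The doxycycline medium kept LIF as far as the protocol text says, and no retinoic acid is named in it.

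Between KO and WT, 4 members differed in untreated cells (Crabp1, Crabp2 and Stra8 higher, Rxra lower), 4 with doxycycline (Crabp1 higher, Rxra, Crabp2 and Cdx1 lower) and 7 with retinoic acid (Rarb, Cyp26a1, Crabp1, Crabp2 and Stra8 higher, Rxra and Cdx1 lower). Over all genes tested, 30% differed in untreated cells (15.2% higher, 14.9% lower), 37% with doxycycline (17.9% higher, 19.1% lower) and 38.8% with retinoic acid (18.8% higher, 20% lower). The untreated and doxycycline counts are near these shares. Of all calls with doxycycline 48.3% were higher in KO, and 60.6% with upper-quartile factors or 59.8% with library totals. The response to retinoic acid differed between the lines for 3 members (Rara, Crabp1 and Cdx1) and for 17.7% of all genes tested, and the response to doxycycline for 5 (Rara, Rarg, Crabp1, Crabp2 and Cdx1) and for 19.2% (9.11% more positive in KO, 10% more negative). The Rarg difference did not pass in 17 of its 18 alternatives, the Rara differences in 8 (retinoic acid) and 3 (doxycycline), and the Cdx1 doxycycline difference in 7. Of the calls on the doxycycline difference, 47.6% were upward, and 61.9% with upper-quartile factors.

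**Figure D5:**
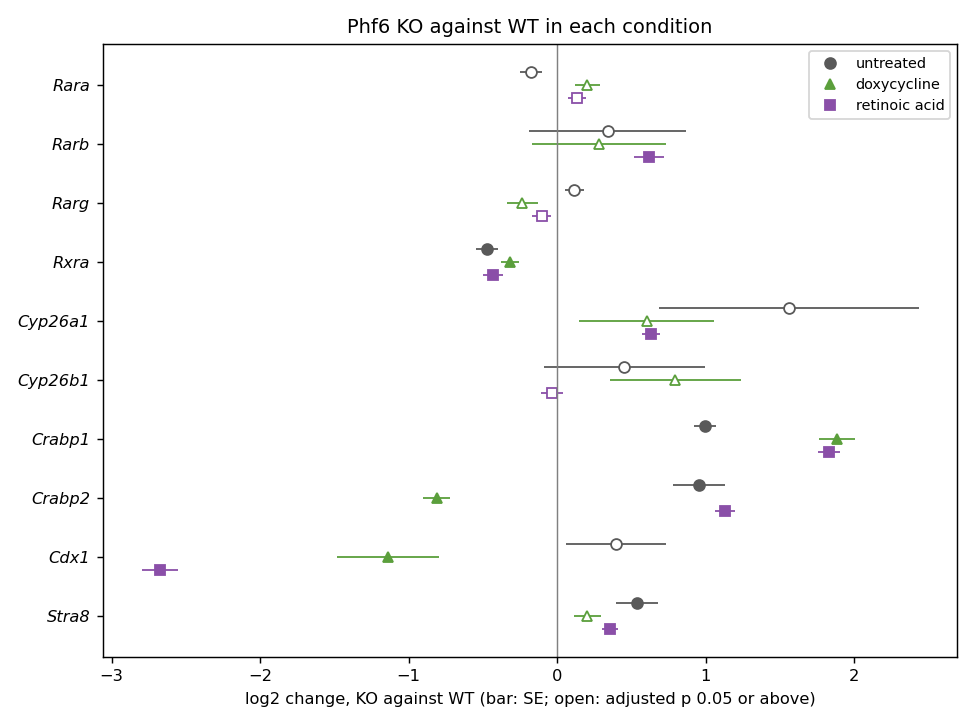
Log2 change of Phf6 KO against WT for each gene (horizontal axis, log2 units) in untreated (grey circles), doxycycline (green triangles) and retinoic acid (purple squares) cells, with bars of 1 SE and open symbols for an adjusted p of 0.05 or above. Crabp1 is to the right and Rxra to the left of 0 in all 3 conditions, Crabp2 changes side with doxycycline, and Cdx1 with retinoic acid is at -2.67.

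Other genes of the pathway were described by lists. Of 6 receptor genes (the members and Rxrb and Rxrg), 4 rose and 1 fell with retinoic acid in WT, and 3 rose and 1 fell in KO. Their median log2 changes were 0.37 and 0.21, beside 0.12 and 0.10 over all genes tested, of which 41% rose and 32.9% fell in WT and 40.9% rose and 34.6% fell in KO, so these counts are near the background. Rxrb, the widely expressed RXR, was at 50.1 ± 0.4 CPM in untreated WT and 54.5 ± 0.0031 CPM with retinoic acid (SD, n = 2). It was higher in KO than in WT by 0.24 ± 0.06 untreated (edgeR adjusted p = 5.1e-03), the opposite side from Rxra. With retinoic acid Rxrb was also called higher in KO (63.7 ± 3.1 CPM). With doxycycline it was called lower in KO, the same side as Rxra (56.0 ± 1.9 CPM in WT and 50.1 ± 2.9 in KO). Rxrg had 17 summed counts in untreated WT and 50 with retinoic acid. Of 14 co-regulators of these receptors, 4 rose and 7 fell with retinoic acid in WT (median log2 change -0.10). In KO 4 rose and 9 fell (-0.30), beside medians of 0.12 and 0.10 over all genes. These falls depend on scaling. In the deposited TPM none of the 7 had a lower WT mean with retinoic acid. Med1, for example, was at 26.7 ± 0.49 TPM untreated and 39.4 ± 1.8 with retinoic acid. The 9 in KO went both ways in TPM. There Crebbp went from 8.68 ± 0.13 to 7.12 ± 0.91 TPM and Med1 from 28.4 ± 1.6 to 36.6 ± 2.2. The co-repressor Ncor1 was at 305 ± 15 CPM in untreated WT cells against 230 ± 7.4 with retinoic acid, and at 327 ± 5.6 against 197 ± 0.33 CPM in KO cells. Its change was more negative in KO (log2 difference -0.32 ± 0.07, edgeR adjusted p = 2.3e-03). In the deposited TPM Ncor1 was at 128 ± 4.1 and 133 ± 3.5 in WT, and at 142 ± 1.2 and 109 ± 7.7 in KO. In TPM its mean was thus lower with retinoic acid in KO only. Nrip1, a ligand-dependent co-repressor that retinoic acid induces, rose by 2.99 ± 0.13 in WT (8.6e-12) and 2.56 ± 0.13 in KO (5.2e-11).

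Of 24 genes listed as induced by retinoic acid, Cdx1 and Stra8 among them, 21 rose and 1 fell in WT (median 4.75) and 22 rose and 1 fell in KO (median 4.82). The gene that fell in both was Tgm2, a transglutaminase, at 113 ± 4.9 CPM in untreated WT and 70.7 ± 10 with retinoic acid, and at 110 ± 1.9 and 35.0 ± 2.1 CPM in KO. Stra6, the cell-surface receptor for retinol-binding protein, rose by 6.15 ± 0.17 in WT (edgeR adjusted p = 1.7e-21) and 5.91 ± 0.19 in KO (2.2e-20). Dhrs3, which turns retinaldehyde back to retinol, rose by 4.69 ± 0.13 in WT (6.4e-22) and 4.31 ± 0.15 in KO (4.1e-20), and was lower in KO with retinoic acid (-0.79 ± 0.09, 2.3e-08). With retinoic acid 9 of the 24 were higher in KO and 11 lower, so the list had no single direction between the lines (median -0.19, beside -0.01 over all genes). Among those whose response itself differed between the lines, Meis2, a homeobox cofactor, was more positive in KO, and Cdx1, Hic1 and Tgm2 were more negative. With doxycycline 13 of the 24 rose and 4 fell in WT, and 14 rose and 4 fell in KO, with medians of 1.45 and 1.55 beside 0.00 over all genes.

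Marker lists of cell types moved with these changes. The summed level of 12 primitive and visceral endoderm markers was 11.2 and 12.2 CPM in untreated WT, 778 and 740 in WT with retinoic acid, and 2286 and 2309 in KO with retinoic acid, and all 11 that could be tested were higher in KO than in WT there (median 1.02). In untreated cells Foxa2, Afp, Ttr and Apoa1 of that list were at 3 counts or fewer. The 10 pluripotency markers summed to 7637 and 7794 CPM in untreated WT, 2959 and 3148 in WT with retinoic acid, and 1973 and 2007 in KO with retinoic acid, and 8 of the 10 were lower in KO there. Pou5f1, which these cells express from the transgene, is in the sum but not among those 8. It made up 1027 CPM in WT and 983 in KO with retinoic acid. With doxycycline the sum was 839 and 894 CPM in WT and 670 and 702 in KO, where 6 of the 10 were lower in KO and 2 higher. With doxycycline the 9 trophectoderm markers summed to 2420 and 2763 CPM in WT and 1626 and 1525 in KO. Untreated, they summed to 129 and 128 CPM in WT and 89.4 and 85.3 in KO, where 6 of the 8 tested were lower in KO and none higher. Elf5 was at 3 counts or fewer in untreated WT and in each KO group. Neural markers summed to 434 and 441 CPM in untreated WT against 420 and 418 for KO, and every treated library had a lower sum. With doxycycline the neural sums were 130 and 136 CPM for WT against 269 and 280 for KO. There 2 of the 7 tested were higher in KO and 1 lower. Against untreated cells, doxycycline lowered 4 of the 7 and raised 2 in WT, and lowered 3 and raised 3 in KO. Most of the untreated neural sum came from Stmn2, whose WT mean of 320 CPM dropped to 26.8 with doxycycline, and whose KO mean of 289 dropped to 105. In the 4 retinoic acid libraries the neural sums were 109 to 115 CPM. Feeder fibroblast markers summed to 41.2 and 42.6 CPM in untreated WT against 58.3 and 55.5 for KO, to 27.6 and 29.1 against 60.7 and 53.8 with doxycycline, and to 115 to 117 CPM with retinoic acid, with Lum and Fap at 3 counts or fewer in all groups. With doxycycline 4 of the 8 feeder markers tested were higher in KO and none lower, and in untreated cells 2 were higher and 1 lower. Markers of primitive streak and mesoderm summed to 58.8 and 63.9 CPM in untreated WT against 90.0 and 89.8 for KO, to 13.4 to 17.1 CPM with doxycycline and to 48.3 to 56.9 CPM with retinoic acid. Most of the untreated sum was Tcf15 alone, at 52.7 CPM in WT and 82.3 in KO, against 4.84 and 3.29 with doxycycline. Of the 8 tested in untreated cells, only Tcf15 was called higher in KO and none lower, with a median log2 change of -0.14. Such sums differ between the lines in the same libraries in which members differ, and the lists named here are not all of them. With retinoic acid, the endoderm and pluripotency sums differed beside Rarb, Rxra, Cyp26a1, Crabp1, Crabp2, Cdx1 and Stra8. There 18.8% of all genes tested were called higher in KO and 20% lower. With doxycycline, the trophectoderm, pluripotency, neural and feeder sums differed beside Rxra, Crabp1, Crabp2 and Cdx1. There 37% of all genes tested were called, 17.9% higher in KO and 19.1% lower. The neural calls, 2 higher and 1 lower of 7, are near that share. In untreated cells, the trophectoderm and feeder sums and, through Tcf15, the mesoderm sum differed beside Rxra, Crabp1, Crabp2 and Stra8. There 30% of all genes tested were called, 15.2% higher in KO and 14.9% lower. The feeder calls, 2 higher and 1 lower of 8, are near that share. The part of the marker differences in the member results was not tested.

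The genes whose log2 CPM followed each member most closely were found over the 12 libraries among 11894 genes with at least 5 CPM in some group. The libraries fall into groups that share a treatment, so these correlations describe the pattern of group levels and carry no test. Cyp26a1 was closest to Hoxb6 (Pearson r = 0.998) and Cyp26b1 to Hoxb2 (0.998), both homeobox genes at under 0.25 CPM in every group without retinoic acid. With retinoic acid Hoxb6 reached 8.76 CPM in WT against 11.5 in KO, and Hoxb2 reached 22.9 CPM in both. Because each gene was picked for its correlation with a member, a likeness in group levels follows from the choice. Rarb was closest to S100g, a calcium-binding protein gene (0.993), at 5.56 and 8.42 CPM in WT and KO with retinoic acid. Crabp2 was closest to Sema6d, a semaphorin gene (0.997). Sema6d also turned over, at 4.26 CPM in WT and 2.80 in KO with doxycycline and 11.9 and 20.5 with retinoic acid. Rarg was closest to the DNA methyltransferase gene Dnmt3a (0.996). Rxra was closest to the co-repressor gene Bcor (0.987), at 43.9 CPM in WT against 16.8 in KO in untreated cells. Crabp1 was closest to Ubl3 (0.990), Rara to Piwil4 (0.991) and Cdx1 to Smox, a spermine oxidase gene (0.973, the lowest of the closest matches).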

How the data were processed

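RNA-seq libraries of 12 samples were used. Per the submitters' processing notes reads were handled with STAR 2.5.3a and RSEM 1.3.0 on mm10, with DESeq2 1.18.1 also named. The deposited files hold, per the file headers, expected counts and TPM per gene, both made by the authors with RSEM. Expected counts, which were not whole for 9.55 to 11.6% of genes, were rounded. edgeR 4.0.16 (R 4.3.3) was fitted to the 12 libraries together, a term for each group, which leaves 6 degrees of freedom, after filterByExpr (minimum count 10) and TMM scaling, with robust glmQLFit and glmQLFTest. p-values were adjusted by Benjamini-Hochberg over 17884 genes. Standard errors are the absolute log2 change over the square root of F. Alternatives used DESeq2 1.42.0, limma 3.58.1 on log2(TPM + 1) and log2(TPM + 0.1), other scaling factors, no filter, fewer libraries and, added after seeing the data, library totals without scaling factors. The procedure was tested on simulated counts. Members, lists, motifs and tests were chosen with earlier results of these data known. Named genes are the members, the pathway and marker lists, Phf6 and Pou5f1, and for each member its closest genes by Pearson r over the libraries, up to 3; Top2b was added because it overlaps Rarb. Some genes that this rule names are not reported here. Coordinates are GENCODE M21 (GRCm38), and sequences are from RefSeq (GRCm38.p6). Strand handling is not given in the sources used here.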

Additional observations from a re-analysis of the deposited data

Results flagged for a closer look

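The response to a treatment was compared between KO and WT by a test of the difference itself (edgeR's quasi-likelihood test, Benjamini-Hochberg adjustment, KO change minus WT change in log2 units). The retinoic acid difference passed for 3 members and for 17.7% of all genes tested. The doxycycline difference passed for 5 members and for 19.2% of all genes tested. The retinoic acid response differed for Cdx1 (-3.07, adjusted p = 3.8e-06), Crabp1 (0.84, 1.1e-06) and Rara (0.31, 0.024). The doxycycline response differed for Crabp2 (-1.76, 1.3e-07), Crabp1 (0.89, 5.1e-05), Cdx1 (-1.53, 0.031), Rara (0.38, 0.014) and Rarg (-0.35, 0.043). The untreated libraries of each line enter both kinds of difference.

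The differences of Crabp1 and Crabp2, and that of Cdx1 with retinoic acid, passed under every alternative run. The others did not. The Rara difference with retinoic acid did not pass with DESeq2 (0.35, adjusted p = 0.11), with limma on log2(TPM + 1) (0.28, 0.10) or log2(TPM + 0.1) (0.29, 0.13), or without untreated WT replicate 1 (0.30, 0.085), untreated KO replicate 2 (0.21, 0.20), retinoic acid WT replicate 1 (0.29, 0.089), or retinoic acid KO replicate 1 (0.33, 0.056) or 2 (0.30, 0.078). The Rara difference with doxycycline did not pass with DESeq2 (0.40, 0.077) or without untreated WT replicate 1 (0.36, 0.053) or untreated KO replicate 2 (0.28, 0.12). The Rarg difference with doxycycline did not pass in 17 of the 18 alternatives: it was -0.33 with RLE size factors (0.054) and -0.29 with upper-quartile factors (0.10), and leaving out any 1 of the 8 libraries gave an adjusted p of 0.060 to 0.15. The Cdx1 difference with doxycycline did not pass without untreated WT replicate 1 (-1.14, 0.13), untreated KO replicate 2 (-1.19, 0.19), doxycycline WT replicate 2 (-1.24, 0.16) or doxycycline KO replicate 2 (-1.08, 0.11), in a fit of only the libraries compared (-1.51, 0.061), or with limma on log2(TPM + 1) (-0.86, 0.10) or log2(TPM + 0.1) (-1.49, 0.095).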

How the results depend on the processing

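Over the 90 log2 changes of members, 58 were called, and 786 of their 843 values under the alternatives kept direction and call. The other 57, over 14 results, kept the direction but not the call, 17 of them for the doxycycline difference of Rarg, and none turned around. Counts of genes called fell by over 1.5 times under some settings. For KO against WT untreated the count of 5369 became 3429 with DESeq2, 3328 with limma on log2(TPM + 1) and 3430 on log2(TPM + 0.1). For KO against WT in retinoic acid, 6936 became 4267 with DESeq2 and 4054 on log2(TPM + 0.1). For the difference in retinoic acid response, 3157 became 1747, 1983 and 1395 (DESeq2 and the 2 limma fits), and for that in doxycycline response 3425 became 1996, 1812 and 1752. The 5 members with a differing doxycycline response became 3 in a fit of only the libraries compared, 3 with DESeq2, 3 with limma on log2(TPM + 1), and 2 to 4 with 1 library left out. The cause was not tested.

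Only changes that were not called changed sign. With 1 library left out, the ranges were -0.019 to 1.04 (Rarb, doxycycline in WT), -0.19 to 1.29 (Rarb, doxycycline in KO), -0.61 to 0.97 (Rarb, KO against WT untreated), -0.012 to 0.89 (Cdx1, KO against WT untreated) and -0.19 to 0.11 (Cyp26b1, KO against WT in retinoic acid). For the difference in retinoic acid response they were -0.36 to 1.22 (Rarb), -0.0049 to 0.10 (Rxra), -1.51 to 0.16 (Cyp26a1) and -0.00033 to 0.40 (Crabp2), and for that in doxycycline response -0.70 to 0.89 (Rarb) and -1.54 to 0.13 (Cyp26a1). On log2(TPM + 1) the difference in retinoic acid response was -0.13 for Rxra and 0.48 for Cyp26a1, and that in doxycycline response 0.15 for Rarb, 0.047 for Cyp26a1 and -0.013 for Cyp26b1. On log2(TPM + 0.1) these were -0.11 for Rxra, 0.45 for Rarb and -0.071 for Cyp26b1. With upper-quartile factors the Rarb doxycycline difference was 0.0046.

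Replicate numbers did not pair the libraries. Over 11444 genes the correlation of same-numbered deviations across 15 pairs of groups ran from -0.27 to 0.15, with 4 over 0.1. With the number as a replicate block, 13127 genes were called for retinoic acid in WT, 3008 for the difference in its response, and the members called were as many as without it in all 9 comparisons. Depth limits Rarb, Cyp26a1 and Cyp26b1 without retinoic acid, at 3 to 28 summed counts per group.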
